A study of Mus musculus with 4 samples.

Results

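Messenger RNAs of the proteins that build P-bodies and stress granules and that remove the poly(A) tail and the cap were followed here in lenses of newborn mice without Tdrd7. The 50 genes were named by the known function of their products: proteins of the granules themselves, deadenylation factors and decapping factors, with Tdrd7 left out. Values were analysed for 49 of the 50, out of 10790 genes in the deposited table, and all 49 passed the filter on low values that 10696 genes passed. Zfp36l1 was not analysed here. The series set lenses of Tdrd7 -/- mice (Tdrd7 null) against lenses of wild type control mice, all at postnatal day 4. Each genotype had 2 libraries, and each library was made from a pool of 15 lenses, given in the labels as a biological replicate. Levels are given in scaled reads, the authors' counts after division by a single factor for each library, and every list of values gives replicate 1 before replicate 2.

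P-bodies and stress granules are assemblies of protein and RNA in the cytoplasm that have no membrane. P-bodies hold messenger RNAs whose translation is repressed together with the decapping enzyme and its activators, while stress granules gather stalled translation initiation complexes when initiation is blocked. Decay of a messenger RNA usually starts with shortening of the poly(A) tail by the Pan2-Pan3 and Ccr4-Not deadenylases, after which the cap is removed and an exonuclease digests the body of the RNA. TDRD7 is a Tudor-domain protein of RNA granules in lens fibre cells, and its loss causes cataract in humans and mice. Fibre cells destroy their nuclei as they mature, so later protein synthesis in them depends on messenger RNA that is already present.

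The libraries held between 33920522 reads (Tdrd7 null replicate 2) and 42767535 reads (control replicate 2) in the listed genes. Even the member with the fewest reads, the decapping activator Dcp1b, had at least 137 in each library. Tdrd7 itself had 165 and 96.6 scaled reads in the Tdrd7 null libraries, against 1188 and 972 in the control libraries. On the log2 scale it fell by 3.08 (SE 0.168, limma adjusted p = 1.17e-06), in the direction of the labels in each of the 4 libraries. The site of the null allele in the gene was not stated in the sources used here. All 15 lens markers, crystallins and fibre cell genes among them, had values. Their summed level was 269000 and 235000 scaled reads in Tdrd7 null lenses and 255000 and 263000 in control lenses, with 3 markers lower (Lim2, Hsf4 and Foxe3) and none higher. Of the markers of other cells, 6 of 8 for endothelium, 3 of 5 for pericytes and 2 of 8 for ciliary body and iris had values, and no value of the markers of macrophages, erythrocytes, retina or muscle was analysed here. The pericyte markers summed to 30.3 and 33.5 scaled reads in Tdrd7 null lenses and 45.5 and 35.7 in control lenses, with Pdgfrb and Notch3 lower. The ciliary body and iris markers summed to 94.5 and 90.1 in Tdrd7 null lenses and 109 and 112 in control lenses, with both of them, Mfap4 and Mfap2, lower. No endothelial marker was called, and their sums were 19.8 and 23.7 in Tdrd7 null lenses and 23.3 and 18.0 in control lenses. Over all genes tested 7.88% fell, a share that differed with base composition as described further on. No marker value is given here with that trend removed. The part of endothelium, pericytes, ciliary body and iris in the results was not tested. In RNA from whole lenses, fewer cells of a type and less RNA per cell cannot be told apart.

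Of the 49 granule and decay genes, 12 rose and 1 fell in Tdrd7 null lenses, and 36 were not called (limma, adjusted p under 0.05 over all genes tested). The genes that rose were Tia1, Tial1, Caprin1, Fmr1, Fxr1 and Tardbp among the stress granule proteins, Larp4 and Pum2 among the proteins that bind the tail or the 3′ UTR, Ago3 among the microRNA silencing proteins, Cnot6 among the deadenylases, and Ddx6 and Lsm1 among the decapping factors. The only gene that fell was Edc4, the scaffold of the decapping complex. The share that rose was 24.5% of the members, and the share over all 10696 genes tested was 10.1%. The share that fell was 2.04% of the members, against 7.88% of all genes tested, and calls in either direction came to 26.5% and 18.0%. The members had a median level of 33.7 scaled reads, against 11.8 over all genes tested. The part of this higher level in the shares was not tested. The changes were small: the members' log2 fold changes ran from -0.22 to 0.32, and no member reached 1.5-fold, which 65 genes did over the whole table. The median was 0.054 over the members and -0.0052 over all genes tested, and the median size regardless of sign was 0.12 and 0.13. Both Tdrd7 null libraries lay above both control libraries for 19 members, and below both for 12. Over all genes tested these 2 patterns held for 30.2% and 31.3%. Without an intensity-dependent prior 0 members were called by limma, with 14 at an unadjusted p under 0.05, and 16 genes were called in the whole table. With Tdrd7 null replicate 1 left out 11 members rose, and with Tdrd7 null replicate 2 left out 4 did (Fmr1, Fxr1, Tia1 and Tial1). It was 3 without control replicate 1 (Fmr1, Tia1 and Tial1) and 2 without control replicate 2 (Tia1 and Tial1). Over all 10696 genes, the counts that rose in the same order of settings were 1166, 520, 293 and 332, against 1077 with all libraries. Edc4 was not called in any of these. Removing the trend on base composition that is described further on also left 0 of 49.

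**Figure D1:**
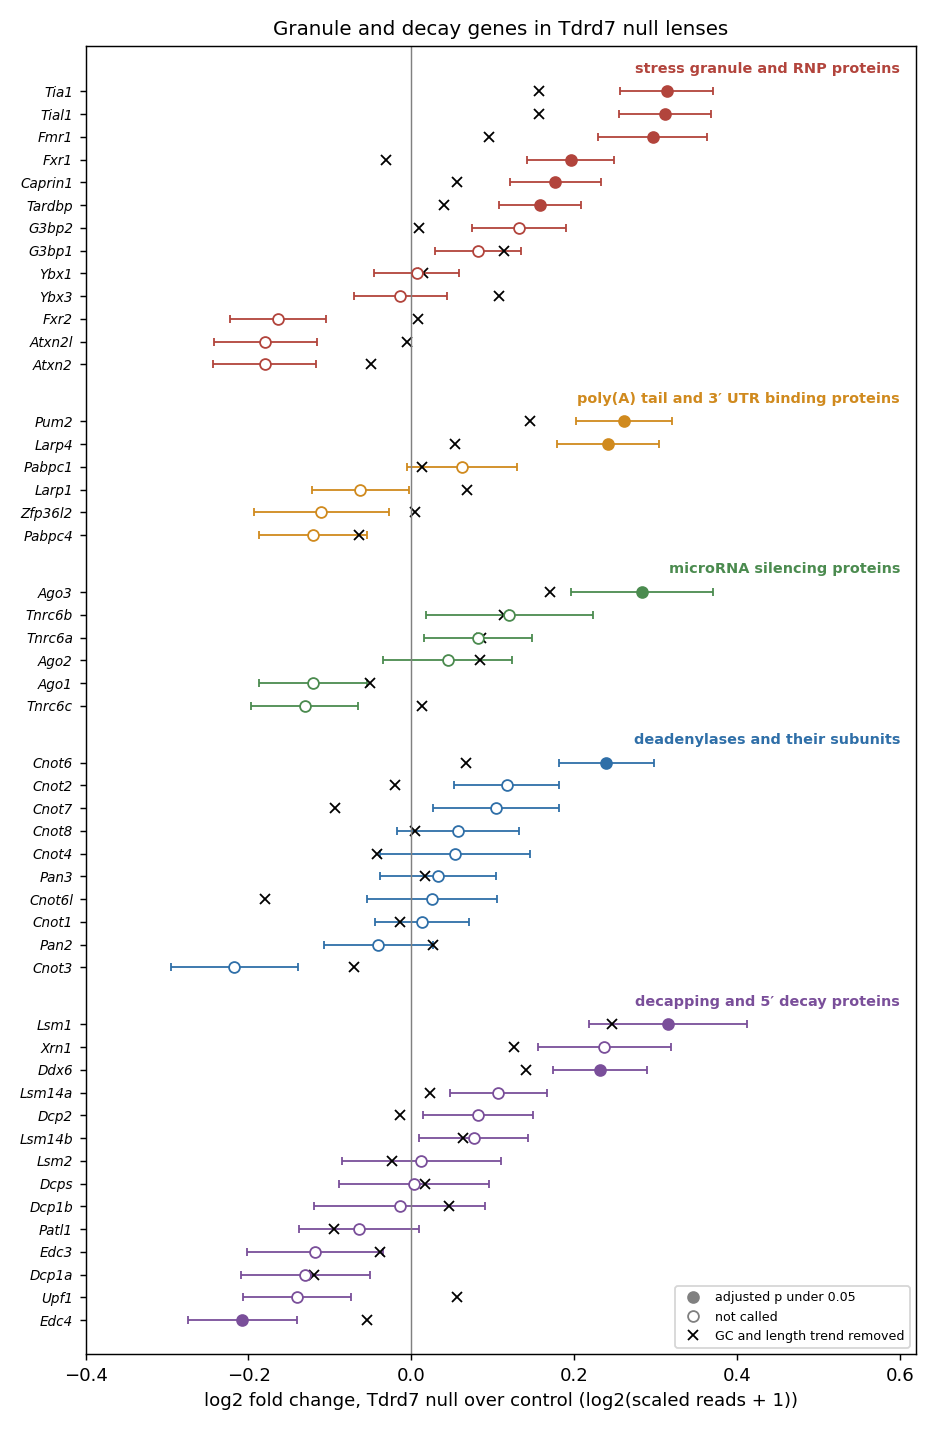
Log2 fold change (Tdrd7 null over control, on the log2(scaled reads + 1) scale) of the 49 members, grouped by role, as circles (filled where called, open where not) with bars of 1 SE from limma, and crosses for the value with the trend on GC content and length removed. The filled circles run from -0.21 (Edc4) to 0.32 (Lsm1), and their crosses lie nearer to 0.

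The stress granule and ribonucleoprotein genes held the most calls, with 6 of 13 higher, none lower and a median log2 fold change of 0.13. Over all genes tested 10.1% rose and 7.88% fell. The longest transcripts of these 13 genes held a median of 42.96% G and C, against 47.29% over the 49 members. With the trend on base composition removed, as described further on, 0 of the 13 were called and their median was 0.040. Tia1 and Tial1 encode the related RNA-binding proteins whose prion-like domains help to nucleate stress granules. Tia1 had 48.9 and 49.0 scaled reads in Tdrd7 null lenses, against 39.97 and 38.4 in control lenses. Tial1 had 62.9 and 66.7 in Tdrd7 null lenses, against 52.0 and 52.0 in control lenses. For both genes the Tdrd7 null pools were higher than either control pool, by a gap wider than the spread within each genotype. On the log2 scale the rise was 0.31 for Tia1 (SE 0.0571, limma adjusted p = 0.00425) and 0.31 for Tial1 (SE 0.0563, limma adjusted p = 0.00412). Each corresponds to a level 1.24-fold higher. Both stayed called whichever single library was left out. Tia1 shares 352 nt of exonic sequence with Gm44790 on the same strand, so its value is uncertain to that extent.

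Fmr1 encodes FMRP, the translational repressor that is lost in fragile X syndrome, and Fxr1 and Fxr2 encode its paralogs. Fmr1 had 27.8 and 28.5 scaled reads in Tdrd7 null lenses and 23.8 and 21.7 in control lenses. Fxr1 had 102 and 98.0 in Tdrd7 null lenses and 86.3 and 88.2 in control lenses. The groups did not overlap for either gene, with the Tdrd7 null libraries on the higher side. Fmr1 rose by 0.30 (SE 0.0673, limma adjusted p = 0.0113) and Fxr1 by 0.20 (SE 0.0531, limma adjusted p = 0.0243) on the log2 scale. Fxr2, chosen for its place in the family after its values were seen, lay on the other side, with 47.2 and 46.7 in Tdrd7 null lenses and 50.8 and 54.8 in control lenses. Its log2 fold change of -0.16 did not pass (SE 0.0590, limma adjusted p = 0.0712). Fxr1 shares 178 nt with Dnajc19 on the opposite strand, and the library kit does not mark strand.

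Caprin1, a binding partner of the G3BP scaffold of stress granules, had 209.9 and 229 scaled reads in Tdrd7 null lenses and 196 and 192 in control lenses. Tardbp, which encodes the RNA-binding protein TDP-43, had 139 and 139.9 in Tdrd7 null lenses and 125 and 125 in control lenses. Both were higher in the Tdrd7 null pools without overlap, and the libraries of a genotype lay closest together for Tardbp. The log2 fold changes were 0.18 for Caprin1 (SE 0.0560, limma adjusted p = 0.0449) and 0.16 for Tardbp (SE 0.0505, limma adjusted p = 0.0465), just inside the threshold. Without Tdrd7 null replicate 2 the value of Caprin1 was 0.11 (limma adjusted p = 0.286). Tardbp shares 1817 nt with Masp2 on the opposite strand, so reads of the pair cannot be told apart there.

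The other 7 members with this role were not called, with log2 fold changes between -0.18 and 0.13. G3bp1 and G3bp2, the G3BP proteins themselves, had 90.4 and 94.1 against 86.9 and 87.3 (G3bp1) and 42.6 and 44.4 against 39.6 and 39.6 (G3bp2) scaled reads in Tdrd7 null and control lenses. Neither pair of groups overlapped, but the log2 differences of 0.082 (limma adjusted p = 0.305) and 0.13 (limma adjusted p = 0.129) did not pass. Ybx1, a cold shock domain protein that packages messenger RNA, was the most abundant of the group, with 469.5 and 481 in Tdrd7 null lenses and 475 and 471 in control lenses. Those values overlap, and the log2 difference was 0.0066 (SE 0.0524, limma adjusted p = 0.945). Atxn2, which encodes ataxin-2, had 44.6 and 45.7 in Tdrd7 null lenses and 54.1 and 48.6 in control lenses. All Tdrd7 null values were below the control values, and the log2 difference was -0.18 (SE 0.0632, limma adjusted p = 0.0645). Its paralog Atxn2l had 50.8 and 53.5 in Tdrd7 null lenses and 62.3 and 56.2 in control lenses, also without overlap and not called. G3bp1 and Ybx1 have processed pseudogenes of nearly the same sequence, which could take or give reads. G3bp2 shares 2050 nt of exonic sequence with Gm26582 on the opposite strand, and the library kit does not mark strand.

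**Figure D2:**
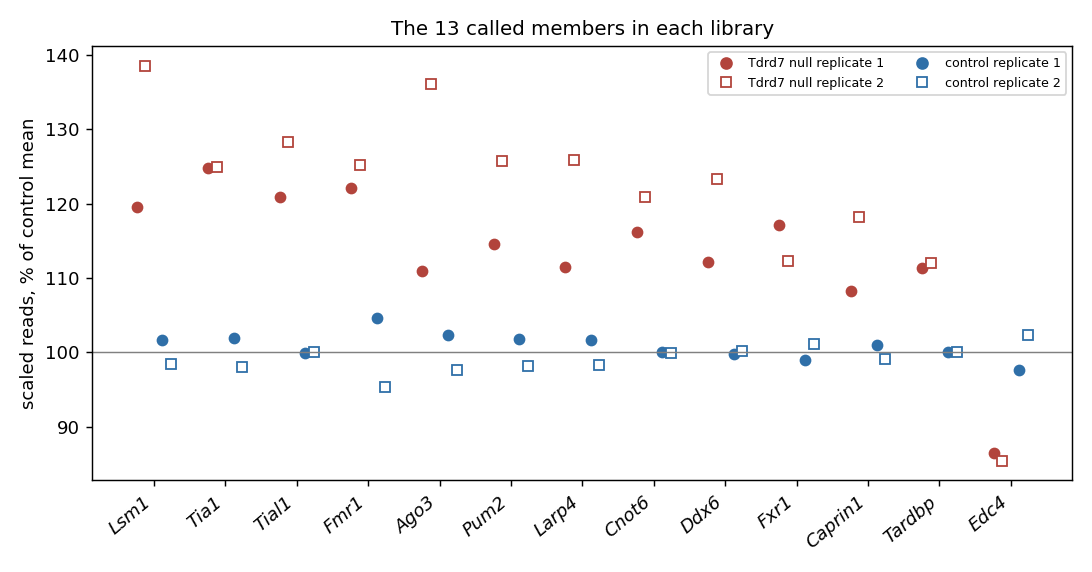
Scaled reads of the 13 called members in each library, in percent of the gene's mean over the control libraries (line at 100), with the Tdrd7 null libraries (red) left of the control libraries (blue), circles for replicate 1 and squares for replicate 2. The axis does not start at 0. The Tdrd7 null points lie above the control points for 12 members and below them for Edc4.

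Among the 6 genes whose proteins bind the poly(A) tail or sequences in the 3′ UTR, 2 rose (33.3%) and none fell. The shares over all genes tested were 10.1% and 7.88%. Larp4, which binds poly(A) and the poly(A)-binding protein and protects messenger RNA from decay, had 85.8 and 96.9 scaled reads in Tdrd7 null lenses and 78.2 and 75.6 in control lenses. Pum2, a Pumilio protein that represses messenger RNAs through sites in their 3′ UTRs, had 96.6 and 106 in Tdrd7 null lenses and 85.9 and 82.9 in control lenses. In both, Tdrd7 null replicate 2 was the highest of the 4 libraries and the groups did not overlap. Larp4 rose by 0.24 (SE 0.0627, limma adjusted p = 0.020) and Pum2 by 0.26 (SE 0.0586, limma adjusted p = 0.0107) on the log2 scale. Without Tdrd7 null replicate 2 the value of Larp4 was 0.155 (limma adjusted p = 0.165). Larp4 has processed pseudogenes, one of them 98.5% identical over 2145 nt, that could share its reads. Larp1, a relative that binds messenger RNAs of the translation machinery and was added after its values were seen, had 89.2 and 99.7 in Tdrd7 null lenses and 98.6 and 98.5 in control lenses. Its groups overlap and its log2 fold change was -0.0625 (limma adjusted p = 0.4999).

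Pabpc1, the main cytoplasmic poly(A)-binding protein, was the most abundant member of all, with 1207 and 1323 scaled reads in Tdrd7 null lenses and 1165 and 1257 in control lenses. Its groups overlapped and it was not called (log2 fold change 0.062, SE 0.0672, limma adjusted p = 0.551). Pabpc4 had 18.9 and 19.7 in Tdrd7 null lenses and 21.2 and 20.9 in control lenses, lower in both Tdrd7 null pools, with a log2 fold change of -0.12 that did not pass (SE 0.0664, limma adjusted p = 0.224). Both have near-identical processed pseudogenes. The last of the group, Zfp36l2, which binds AU-rich elements and recruits deadenylases, had 12.3 and 12.4 in Tdrd7 null lenses and 12.5 and 14.4 in control lenses and was not called.

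Of the 6 microRNA silencing genes 1 rose (16.7%) and none fell, where 10.1% of all genes tested rose and 7.88% fell. Argonaute proteins hold the microRNA, and the Tnrc6 proteins link them to the deadenylases. Ago3 had 18.9 and 23.2 scaled reads in Tdrd7 null lenses and 17.5 and 16.7 in control lenses. The groups did not overlap, although the Tdrd7 null pools lay farther from each other than replicate 1 did from the control pools. Ago3 rose by 0.28 on the log2 scale (SE 0.0872, limma adjusted p = 0.0403). It was 0.14 without Tdrd7 null replicate 2 (limma adjusted p = 0.331) and 0.42 without Tdrd7 null replicate 1. The paralogs, named after their values were seen, were not called: Ago1 had 48.7 and 51.1 in Tdrd7 null lenses and 57.8 and 51.1 in control lenses. Ago2, the argonaute with slicer activity, had 45.1 and 54.1 in Tdrd7 null lenses and 50.2 and 45.7 in control lenses. The log2 fold changes were -0.12 for Ago1 (limma adjusted p = 0.223) and 0.045 for Ago2 (limma adjusted p = 0.734).

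The most abundant gene of the silencing group, Tnrc6b, was also the member whose Tdrd7 null pools differed most. It had 264 and 356 scaled reads in Tdrd7 null lenses and 267 and 298 in control lenses, so that the lowest and the highest value both came from Tdrd7 null pools. With all libraries the difference was 0.12 on the log2 scale (SE 0.103, limma adjusted p = 0.445). It was 0.34 without Tdrd7 null replicate 1, with a limma adjusted p of 0.00256, and -0.10 without Tdrd7 null replicate 2. Tnrc6c had 30.8 and 32.5 in Tdrd7 null lenses and 36.4 and 33.1 in control lenses, lower without overlap but not called (log2 fold change -0.13, SE 0.0659, limma adjusted p = 0.186). Tnrc6a, added after its values were seen, had 43.7 and 49.9 in Tdrd7 null lenses and 44.2 and 43.8 in control lenses, and its groups overlap.

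Of the 10 deadenylase genes 1 rose and none fell. Cnot6, a catalytic subunit of Ccr4-Not, had 41.0 and 42.7 scaled reads in Tdrd7 null lenses and 35.3 and 35.3 in control lenses. Both Tdrd7 null pools were above both control pools, and the libraries of a genotype lay close together. Cnot6 rose by 0.24 on the log2 scale (SE 0.0583, limma adjusted p = 0.0156). Cnot6l, the paralogous catalytic subunit, was named after its values were seen. It had 14.9 and 16.2 in Tdrd7 null lenses and 16.1 and 14.4 in control lenses, which overlap, with a difference of 0.025 on the log2 scale (limma adjusted p = 0.860). Cnot1, the scaffold of the complex, had 73.3 and 79.3 in Tdrd7 null lenses and 76.8 and 74.3 in control lenses, with a difference of 0.013 on the log2 scale (SE 0.0575, limma adjusted p = 0.898). Its Tdrd7 null values lie on either side of the control values. Cnot3, a regulatory subunit, had 12.2 and 12.95 in Tdrd7 null lenses and 15.5 and 14.1 in control lenses. It was lower in both Tdrd7 null pools and had the lowest log2 fold change of all members, -0.22, but did not pass (SE 0.0780, limma adjusted p = 0.0702). Cnot1 and Cnot3 have near-identical processed pseudogenes. The remaining subunits, Cnot2, Cnot4, Cnot7 and Cnot8, and both subunits of the Pan2-Pan3 deadenylase were not called. Cnot2 had 22.5 and 22.7 in Tdrd7 null lenses and 20.5 and 21.1 in control lenses. Cnot7, a catalytic subunit, had 17.3 and 15.3 in Tdrd7 null lenses and 15.1 and 15.0 in control lenses. These were the 2 of them whose Tdrd7 null values both lay above the control values.

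Of the 14 genes of decapping and of the decay that follows it, 2 rose (14.3%) and 1 fell (7.14%). The shares over all genes tested were 10.1% and 7.88%. Ddx6, the DEAD-box helicase that P-body assembly requires, had 100.6 and 111 scaled reads in Tdrd7 null lenses and 89.5 and 89.9 in control lenses. Lsm1, the subunit that sets the cytoplasmic Lsm ring of decapping apart from the nuclear one, had 6.76 and 7.83 in Tdrd7 null lenses and 5.74 and 5.56 in control lenses. Both were higher in the Tdrd7 null pools without overlap, and in both replicate 2 was the higher of these pools. Ddx6 rose by 0.23 (SE 0.0577, limma adjusted p = 0.0171) and Lsm1 by 0.32 (SE 0.0970, limma adjusted p = 0.0400) on the log2 scale. Lsm1 had the lowest level of the called members, at 235 reads or more in each library. Edc4, the decapping scaffold, had 19.0 and 18.7 in Tdrd7 null lenses and 21.4 and 22.4 in control lenses. Both Tdrd7 null pools were below both control pools, and it fell by 0.21 on the log2 scale (SE 0.0667, limma adjusted p = 0.0473), near the threshold. Edc4 shares 458 nt with Nrn1l on the same strand.

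The decapping enzyme and the exonuclease that acts after it were not called. Xrn1, the exonuclease that digests decapped messenger RNA, had 10.96 and 11.3 scaled reads in Tdrd7 null lenses and 9.70 and 8.94 in control lenses. The groups did not overlap and Xrn1 lay just outside the threshold, with a log2 difference of 0.24 (SE 0.0818, limma adjusted p = 0.0612). It passed when the filter was raised to a mean of 5 (adjusted p = 0.0493), and 604 nt of it overlap an antisense transcript. Dcp2, the decapping enzyme, had 24.1 and 26.4 in Tdrd7 null lenses and 23.8 and 23.8 in control lenses and was not called. Its activator Dcp1a had 13.2 and 11.8 in Tdrd7 null lenses and 13.7 and 13.8 in control lenses, lower without overlap and not called. Lsm14a, a partner of Ddx6 and the most abundant of the uncalled genes here, had 48.7 and 49.1 in Tdrd7 null lenses and 47.1 and 43.7 in control lenses, with a log2 difference of 0.11 (SE 0.0592, limma adjusted p = 0.228). Upf1, the helicase of nonsense-mediated decay, had 31.9 and 32.0 in Tdrd7 null lenses and 33.4 and 37.3 in control lenses, and Patl1, which joins the Lsm ring to the decapping enzyme, had 12.8 and 12.6 in Tdrd7 null lenses and 13.3 and 13.3 in control lenses. Neither was called, although the Tdrd7 null values of both were below the control values. Dcp1b, Dcps, Edc3, Lsm2 and Lsm14b were also not called, and the log2 fold changes of all 11 uncalled genes with this role lay between -0.14 and 0.24.

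The members that rose had messenger RNAs poor in G and C. The messenger RNAs of the 12 members that rose held 38.7% to 47.1% G and C in their longest transcripts, with a median of 41.6%. The median was 49.4% over the 36 members not called, which ran from 37.6% to 58.5%, and 50.02% over all genes tested, and Edc4 held 55.5%. The stretches shown here are the middle 90 coding bases of 4 members in GENCODE M21, with G and C in capitals. They are the member with the smallest p (Tial1, chromosome 7, 128439777 to 128461717 in GRCm38), the called member of lowest GC content (Larp4, chromosome 15, 99970074 to 100016351), the member that fell (Edc4, chromosome 8, 105880881 to 105894908) and the member of highest GC content (Fxr2, chromosome 11, 69632990 to 69653297). The member of lowest GC content, Cnot6l at 37.6%, was not called and is not shown. All 4 stretches are coding exon sequence written in the direction of the messenger RNA.
Tial1: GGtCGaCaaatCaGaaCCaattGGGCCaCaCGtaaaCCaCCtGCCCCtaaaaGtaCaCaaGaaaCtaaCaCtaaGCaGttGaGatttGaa
Larp4: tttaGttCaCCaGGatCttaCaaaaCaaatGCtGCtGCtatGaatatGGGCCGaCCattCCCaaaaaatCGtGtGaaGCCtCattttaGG
Edc4: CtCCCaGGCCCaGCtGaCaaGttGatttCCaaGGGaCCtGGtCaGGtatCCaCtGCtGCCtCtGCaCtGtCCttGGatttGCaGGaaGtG
Fxr2: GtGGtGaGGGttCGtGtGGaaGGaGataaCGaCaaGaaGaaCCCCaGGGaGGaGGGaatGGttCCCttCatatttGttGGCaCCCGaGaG
The GC content of these windows was 43.3% in Tial1, 41.1% in Larp4, 55.6% in Edc4 and 53.3% in Fxr2. The contrast was wider over the whole transcripts, at 41.3%, 38.7%, 55.5% and 58.5% in the same order. The 3′ UTRs held 35.2% in Tial1 and 33.5% in Larp4, against 47.9% in Edc4 and 56.2% in Fxr2.

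Across the 49 members the log2 fold change fell with GC content, with a Pearson r of -0.832 and a Spearman rho of -0.85. This correlation is across genes, whose values come from the same 4 libraries, so the genes are not independent replicates. With the GC content of the coding sequence alone r was -0.707, with that of the 3′ UTR -0.597, and with log2 transcript length 0.181. Over the 10656 genes tested that had an annotated transcript, r was -0.603 and rho -0.632. By class of GC content, 4 of 5 members under 40% rose, where 46.9% of all genes in that class did. Between 40% and 45% it was 7 of 13 members, against 24.2% of all genes. Between 45% and 50% it was 1 of 13 (Lsm1), against 9.28%, and none of the 18 members at 50% or more rose. Of all genes, 2.87% rose between 50% and 55% and 0.772% from 55% upwards. The median log2 fold changes of the members and of all genes in each class were 0.24 and 0.24 under 40%, 0.18 and 0.14 from 40% to 45%, 0.062 and 0.041 from 45% to 50%, -0.0865 and -0.053 from 50% to 55%, and -0.17 and -0.15 from 55% upwards. In that last class 1 of 6 members fell (Edc4), against 22.5% of all genes. Between 50% and 55% it was 0 of 12 members, against 6.65%. In every class the median level of the members was above that of all genes. From 40% to 45% it was 41.6 scaled reads, against 13.8. The part of level in these counts was not tested.

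**Figure D3:**
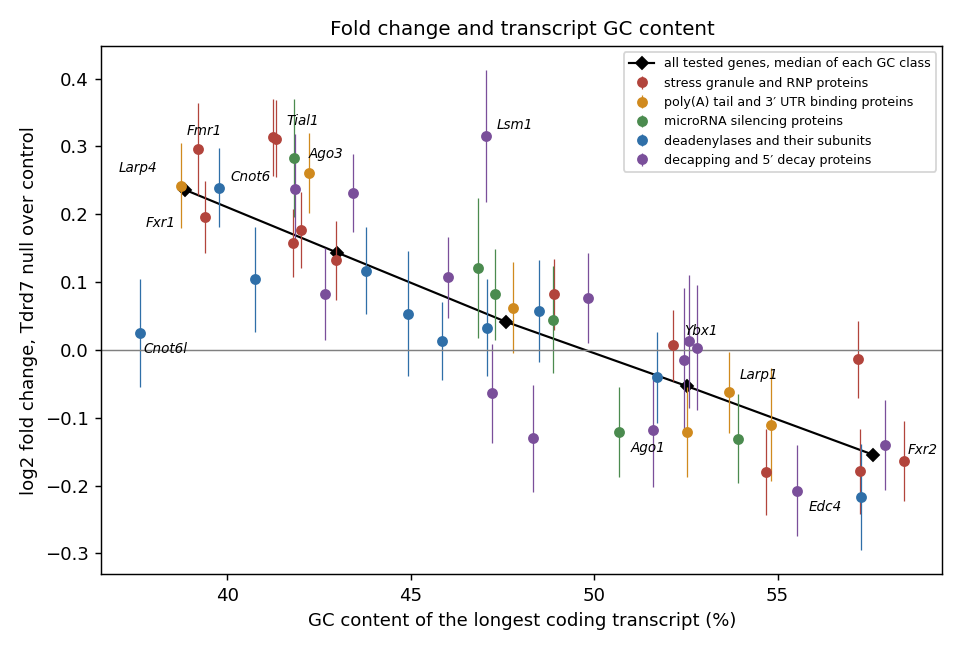
Log2 fold change (Tdrd7 null over control) of the 49 members, coloured by role, with bars of 1 SE from limma, against the GC content in percent of the longest coding transcript, with the median of all genes tested in each of 5 GC classes as diamonds joined by a line. The members' values fall with GC content (r = -0.832), and so do the medians of all genes.

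The trend of each library with GC content and transcript length was then taken out of the log2 values, and the genotypes were compared again. In that fit 0 of the 49 members were called by limma, and 8 (16.3%) had an unadjusted p under 0.05. Over all 10656 genes, 3.08% were called and 18.0% had an unadjusted p under 0.05, so the members' share was near that of the table. The 8 were Tia1, Tial1, G3bp1, Pum2, Ago3, Ddx6, Lsm1 and, on the lower side, Cnot6l. The median log2 fold change of the members was 0.0165, against 0.0037 over all genes, and the values ran from -0.18 (Cnot6l) to 0.25 (Lsm1). Tia1 stood at 0.16 (limma adjusted p = 0.121), Tial1 at 0.16 (0.114), Pum2 at 0.15 (0.130), Ago3 at 0.17 (0.230), Ddx6 at 0.14 (0.155) and Lsm1 at 0.25 (0.192), each smaller than before the removal. Fmr1 stood at 0.095 (limma adjusted p = 0.430), and the values of Caprin1, Tardbp, Larp4 and Cnot6 were between 0.040 and 0.067. Fxr1 stood on the other side at -0.031 (limma adjusted p = 0.789) as did Fxr2 at 0.0078, and Edc4 stood at -0.055 (limma adjusted p = 0.691). Tdrd7 kept its value, at -3.06 (limma adjusted p = 4.95e-06). Without Tdrd7 null replicate 1 the same fit called 5 members higher, Pum2, Ago3, Ddx6, Lsm1 and Tnrc6b, and without any other single library it called 0. Over all genes that fit called 581 higher and 479 lower without Tdrd7 null replicate 1, against 209 and 119 with all libraries. A trend with GC content that came from the genotype and one that came from the making of the libraries cannot be told apart with these 4 libraries.

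Within a genotype, the members' values also differed between pools. In the Tdrd7 null lenses replicate 2 was above replicate 1 for 40 of 49 members, with a median log2 difference of 0.063 and a range from -0.17 (Cnot7) to 0.43 (Tnrc6b). Over all genes tested it was above for 51.4%, with a median of 0.0038. In the control lenses replicate 2 was above replicate 1 for 17 of 49 members, with a median of -0.021 and a range from -0.18 (Ago1) to 0.20 (Zfp36l2). Over all genes tested it was above for 5353 of 10696. The members' median log2 fold change was 0.10 without Tdrd7 null replicate 1 and -0.0038 without Tdrd7 null replicate 2, against 0.054 with all libraries.

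Levels of different genes were compared per kilobase of the longest coding transcript, as the mean over the 4 libraries. The members had a median of 7.22 scaled reads per kilobase, against 3.60 over all genes tested. Pabpc1, at 439, and Ybx1, at 291, stood far above the others, followed by Ybx3 at 54.3, Caprin1 at 33.5 and Fxr1 at 31.1. Tardbp (17.7), Tnrc6b (17.1), Fxr2 (16.9), Ddx6 (16.1) and Lsm14a (16.0) formed the next tier and lay close together. The lowest were Dcp1b at 1.251, Ago3 at 1.22 and Xrn1 at 0.998 scaled reads per kilobase.

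Shares within families of paralogs, and within the pair of deadenylase subunits Pan2 and Pan3, were taken on the same scale per kilobase. Fxr1 made up 60.3% and 59.3% of the Fmr1 family in Tdrd7 null lenses and 55.9% and 55.5% in control lenses, and Fxr2 28.4% and 28.9% in Tdrd7 null lenses and 33.6% and 35.2% in control lenses. Fmr1 took 11.2% and 11.8% in Tdrd7 null lenses and 10.5% and 9.34% in control lenses. None of these 3 shares overlapped between genotypes, which held for 16 of the 31 shares in the 14 families compared, the Pan2 and Pan3 pair among them. In a family of 2 genes both shares separate together, and 7 of the 14 families had no overlapping share. For the levels of all genes tested, both Tdrd7 null libraries lay above both control libraries in 30.2% and below both in 31.3%. With the trend on GC content and length removed, the log2 differences were 0.095 for Fmr1, -0.031 for Fxr1 and 0.0078 for Fxr2. Ago3 took 10.8% and 11.9% of the sum of Ago1, Ago2 and Ago3 in Tdrd7 null lenses and 8.78% and 9.34% in control lenses. Larp4 took 49.4% and 49.6% of the sum of Larp1 and Larp4 in Tdrd7 null lenses and 44.6% and 43.8% in control lenses. Cnot6 took 80.5% and 79.7% of the sum of Cnot6 and Cnot6l in Tdrd7 null lenses and 76.6% and 78.5% in control lenses. With that trend removed, the log2 differences were 0.053 for Larp4 and 0.068 for Larp1, so Larp4 was no longer the higher of the pair. They were 0.17 for Ago3, 0.085 for Ago2 and -0.050 for Ago1, and 0.067 for Cnot6 and -0.18 for Cnot6l. Tia1 took 43.6% and 42.2% of the sum of Tia1 and Tial1 in Tdrd7 null lenses and 43.3% and 42.3% in control lenses, which overlap. With 2 pools a genotype the smallest two-sided p of an exact permutation test is 0.333, so no p is given for these shares.

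**Figure D4:**
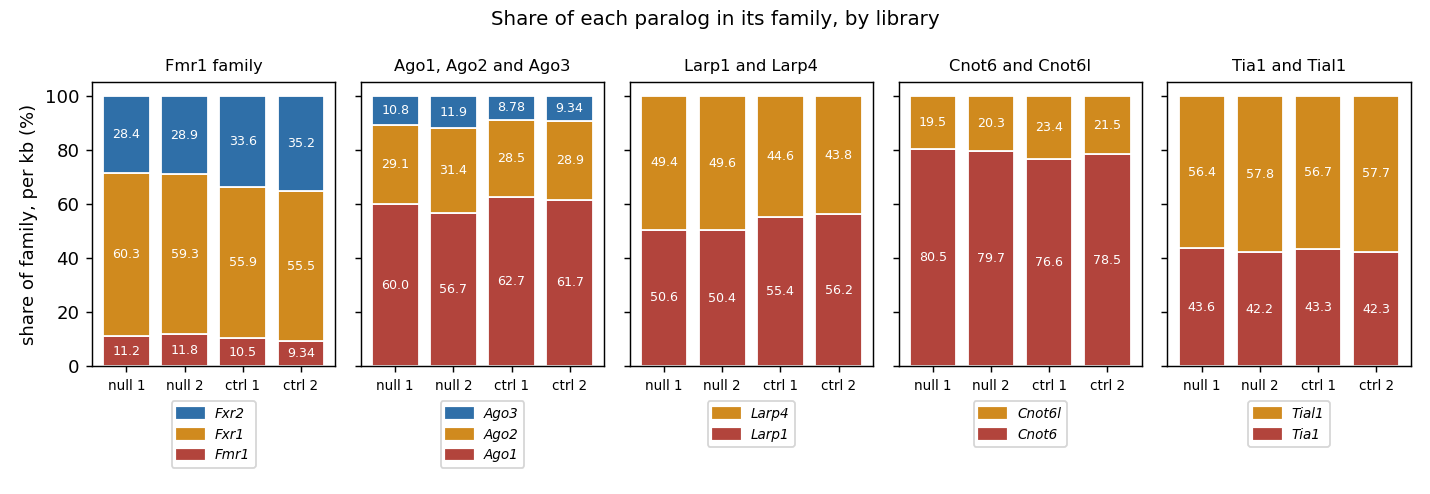
Share in percent of each paralog in the level per kilobase of its family, in each library, as stacked bars with the Tdrd7 null libraries (null) left of the control libraries (ctrl). The shares of Fxr1 lie higher and those of Fxr2 lower in the Tdrd7 null libraries, while those of Tia1 and Tial1 overlap.

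A list of 97 further genes of granules and decay, taken by function, gave the setting of these results. Of its 90 entries that were tested, Larp1b among them under separate identifiers, 13 rose (14.4%) and 6 fell (6.67%). Their median log2 fold change was 0.019. Over all genes tested 10.1% rose and 7.88% fell, with a median of -0.0052. By function, 5 of 19 other stress granule genes rose, as did 4 of 11 in the group of other decapping and Lsm genes. That group also held Mex3a and Mex3b, which were not called, and Xrn2, which rose. In the exosome and Ski complex 1 of 16 rose, in nonsense-mediated decay 1 of 9, and in cap binding and translational repression 1 of 6. Among other 3′ UTR and microRNA factors 1 of 20 entries rose, with Larp1b counted under each identifier. The genes that fell were 2 of the other stress granule genes, 2 of the other 3′ UTR and microRNA factors, 1 of the exosome and Ski complex, and 1 of the other decapping and Lsm genes. None of 9 other deadenylation genes was called, by limma at an adjusted p under 0.05 or at an unadjusted one, for either direction. Upf3b, which links exon junctions to nonsense-mediated decay, had 63.2 and 67.7 scaled reads in Tdrd7 null lenses and 51.2 and 51.1 in control lenses and rose by 0.35 on the log2 scale (SE 0.0574, limma adjusted p = 0.00271). Eif4e, the cap-binding translation factor, had 169 and 174 in Tdrd7 null lenses and 142 and 141 in control lenses and rose by 0.27 (SE 0.0507, limma adjusted p = 0.00448). Neither was called once the trend on GC content and length was removed.

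On the lower side, Pabpn1, the nuclear poly(A)-binding protein, had 21.6 and 16.4 scaled reads in Tdrd7 null lenses and 27.2 and 28.6 in control lenses. It fell by 0.54 on the log2 scale (SE 0.0983, limma adjusted p = 0.00409) and was still called with the trend removed, at -0.44 (limma adjusted p = 0.0248). The call was lost without control replicate 2, where the log2 fold change was -0.51. Without Tdrd7 null replicate 2 it was -0.36. Pabpn1 shares 651 nt with Gm20521 on the same strand. Ubap2 had 44.4 and 44.3 in Tdrd7 null lenses and 52.3 and 53.0 in control lenses and fell by 0.24 (SE 0.0554, limma adjusted p = 0.0115). Usp10, a deubiquitinase that binds G3bp1, had 60.2 and 58.3 in Tdrd7 null lenses and 68.9 and 69.3 in control lenses and fell by 0.22 (SE 0.0540, limma adjusted p = 0.0166). With the trend removed, 3.08% of all 10656 genes were called in either direction. Of the 88 genes of the list with an annotated transcript, 2 rose in that fit, besides the fall of Pabpn1. They are named after their values were seen. Wdr61, a subunit of the Ski complex, had 31.3 and 32.2 in Tdrd7 null lenses and 25.3 and 26.2 in control lenses, at 0.26 with the trend removed (limma adjusted p = 0.0318). It shares 1581 nt of its 3372 nt with Dnaja4 on the opposite strand, and the libraries do not mark strand. Igf2bp2, which binds and stabilises messenger RNAs, had 56.0 and 56.7 in Tdrd7 null lenses and 50.4 and 46.8 in control lenses, at 0.26 (limma adjusted p = 0.0217).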

How the data were processed

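RNA of whole lenses at postnatal day 4 was sequenced from 2 pools of 15 lenses for each genotype, and groups were taken from the labels. Per the labels, RNA without its small fraction was selected on oligo-dT beads, and TruSeq libraries, from a kit that does not mark strand, were sequenced as paired reads of 75 nt. Per the submitters' processing notes, Trimmomatic, TopHat2 2.0.9, Cufflinks and Cuffnorm were used with mm10 (GRCm38). What counted the reads and scaled the libraries was not stated in the sources used here.

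Each gene has 1 deposited signal value per library. Within a library 100% of the values lay within 0.001 reads of a whole multiple of a step, the value of 1 read, which was 0.0266 and 0.0282 in Tdrd7 null replicates 1 and 2 and 0.0241 and 0.0237 in control replicates 1 and 2. The values were thus scaled per library and not by gene length. No listed gene stayed below 1.02 in all libraries, so genes with fewer reads are not covered. No column belonged to a sample outside the series, and 33211 blank rows were left out.

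Genes with a mean of at least 1 were tested on the log2(scaled reads + 1) scale, on which fold changes of low genes are understated. Tdrd7 null was set against control in limma 3.58.1 (R 4.3.3) under an intensity-dependent prior (11.1 prior and 2 residual degrees of freedom), two-sided, with Benjamini-Hochberg adjustment over all genes tested and a threshold of 0.05. The p-values measure a spread between these pools that is taken largely from the prior, and so from other genes of similar level. The fit was tested on simulated data. The longest coding transcript in GENCODE M21 gave each gene's GC content and length. The trend fit removed natural splines with 5 degrees of freedom on GC content and log2 length from each library. Exonic overlap was counted from 100 nt, and near-identical copies with BLAST 2.17.0 from 95% identity over 200 nt: 17 members share exons with another gene and 8 have such a copy elsewhere.

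The members, the lists and the tests were chosen with earlier results of these data known. Values are given for every called member, for the uncalled member of each role with the highest level and the one with the largest log2 fold change, and for the 3 called genes of the further list with the smallest p in each direction. A gene that this rule takes is not reported here. Other genes were named after their values were seen. Alternatives were other pseudocounts, filters, scalings and priors, the replicate number as a block, the removed trend and leaving out each library.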

Additional observations from a re-analysis of the deposited data

How the results depend on the processing

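Pseudocounts of 0.1 and 5, no filter and TMM scaling left every one of the 40 log2 fold changes followed on its side of the threshold, and a minimum mean of 5 moved only Xrn1 across it. Of the members, 12 rose as reported. It was 7 after rescaling without crystallins, 0 without the intensity trend, 0 with the trend on GC content and length removed, with or without the replicate block, and 2 to 11 when 1 library was left out. With that trend removed it was 0 to 5 when 1 library was left out, a setting added after the data were seen. The single member that fell became 5 after rescaling (Fxr2, Atxn2l, Cnot3, Edc4 and Atxn2), 3 with a robust prior, 5 with the crossed pairing and 0 without the intensity trend, with the replicate block, with the trend removed, with both, and without any 1 library, also with the trend removed. Over all genes, 1920 were called as reported, 16 without the intensity trend, 328 with the trend on GC content and length removed, 387 with the replicate block as well, 3036 with the crossed pairing, and 431 to 2196 without 1 library. The genes that fell over the whole table numbered 843 as reported, 1262 after rescaling, 964 with a robust prior and 1408 with the crossed pairing. Those that rose numbered 1077 as reported and 768 after rescaling. Rescaling without crystallins shifted the median of all genes to -0.04 and the share of calls that were higher to 37.8%, against 56.1% as reported.

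The labels do not say that the replicate number marks anything shared, and deviations of same-numbered libraries correlated at -0.151 over 10696 genes. With the replicate block 10 members rose and 0 fell, and Caprin1, Tardbp and Edc4 were lost. Over all genes 1144 rose and 973 fell with that block. The crossed pairing, added after seeing the data, gave 13 members higher and 5 lower, against 1628 and 1408 over all genes. With a robust prior the adjusted p of Tdrd7 was 0.0555.

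Some log2 fold changes turned round. With the trend on GC content and length removed, with or without the replicate block, Fxr1 stood at -0.031, Tnrc6c at 0.013, Cnot1 at -0.014, Fxr2 at 0.0078, Cnot6l at -0.18 and Larp1 at 0.068. After rescaling, Ybx1 stood at -0.034, Cnot1 at -0.027 and Cnot6l at -0.013. Without 1 library the values ran from -0.0106 to 0.0238 for Ybx1, from -0.0038 to 0.13 for Pabpc1, from -0.0953 to 0.34 for Tnrc6b, from -0.043 to 0.069 for Cnot1, from -0.084 to 0.17 for Ago2, from -0.0122 to 0.18 for Tnrc6a, from -0.052 to 0.10 for Cnot6l and from -0.14 to 0.0168 for Larp1. The cause was not tested. Where 1 library was left out, its genotype had a single library, which was assumed to vary like the others. Planned count models were not run.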
